A study of Mus musculus with 12 samples.

Results

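The genes described here are products by which hepatocytes, the main cells of the liver, are recognised: secreted plasma proteins and enzymes of liver metabolism. They were chosen by name as a list of 36 genes, of which 34 stand among the 25919 gene symbols of the count table. The other two, Mup3 and Mup20, are not analysed here. None of the libraries is labelled as hepatocytes. The series comprises 12 libraries of bulk RNA, counted at the 3' end of polyadenylated transcripts, from livers of C57BL/6 mice at 7 weeks of age. In 2 libraries, called Kupffer day 0 a and b here, the labelled cell type is Kupffer cells, macrophages that reside in the liver, at day 0. In 4 libraries, called CD40 day 2 a to d, it is CD40 at day 2, CD40 being a receptor of antigen-presenting cells. The letters follow the order of columns and carry no pairing. The labels state no genotype, treatment, sort gate or starting event for the days, and no animal for any library, so the spread that the p-values measure is that of libraries and may be technical. Cell label and day differ together and cannot be told apart. The other 6 libraries, Kupffer cells at day 7 (2) and Ly6C CD40-negative cells at day 2 (4), were not read by gene, because their values seem to have been sorted independently of the gene names.

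Hepatocytes make most of the protein of blood plasma. Their products include albumin and other carriers, the apolipoproteins of circulating lipoproteins, protease inhibitors, and the proteins of clot formation and clot removal. They also run the urea cycle, the synthesis of glucose and the oxidation of foreign compounds by cytochrome P450 enzymes. The transcription of these genes in hepatocytes depends on a shared set of regulators that includes HNF1, HNF4 and C/EBP proteins, and in the acute phase response signals of inflammation raise fibrinogen and haemopexin.

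The start regions of 3 members are shown because their transcripts behaved differently in the comparison below: Alb fell, whereas Hpx and Fgb did not pass the test in either direction. Each is the 300-base window of the RefSeq table (build GRCm38.p6) from 250 bases before to 50 bases after the start, written 5′ to 3′ in the direction of the gene. Capitals mark the letters GTTAAT, a core of the HNF1 site, and TTNNGNAA, a C/EBP pattern, on either strand. The windows are Alb at chr5:90460620-90460919 on the plus strand, Hpx at chr7:105600067-105600366 on the minus strand and Fgb at chr3:83049814-83050113 on the minus strand.
Alb: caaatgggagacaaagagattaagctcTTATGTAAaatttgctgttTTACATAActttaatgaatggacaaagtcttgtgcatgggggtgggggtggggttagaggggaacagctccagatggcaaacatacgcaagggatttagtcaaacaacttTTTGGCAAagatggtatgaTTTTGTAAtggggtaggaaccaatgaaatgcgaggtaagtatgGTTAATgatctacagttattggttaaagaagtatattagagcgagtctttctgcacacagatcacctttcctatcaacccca
Hpx: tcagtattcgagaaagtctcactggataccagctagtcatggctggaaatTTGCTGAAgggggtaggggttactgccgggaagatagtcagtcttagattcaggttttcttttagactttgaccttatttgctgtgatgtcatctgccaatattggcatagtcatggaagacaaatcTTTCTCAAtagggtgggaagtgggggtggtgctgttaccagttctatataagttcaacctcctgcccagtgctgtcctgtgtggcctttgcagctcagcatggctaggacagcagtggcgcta
Fgb: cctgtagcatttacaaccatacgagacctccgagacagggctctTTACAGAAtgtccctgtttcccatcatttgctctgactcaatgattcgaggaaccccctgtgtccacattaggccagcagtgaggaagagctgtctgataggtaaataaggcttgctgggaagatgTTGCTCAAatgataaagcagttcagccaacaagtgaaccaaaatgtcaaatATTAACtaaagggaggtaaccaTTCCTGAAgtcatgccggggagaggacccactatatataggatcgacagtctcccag
In the Alb window the HNF1 site lies at bases 219 to 224 and is matched on the given strand, and in the Fgb window at bases 222 to 227 on the reverse strand. The letters are not in the Hpx window, which has C/EBP matches at bases 51 to 58 and 178 to 185. Windows were found for 27 of the 34 members. GTTAAT was in a window of 11 of these 27 genes (40.7%), against 8.24% of the 27025 genes with a window. TTNNGNAA was in 17 (63%) against 44.1%, the STAT pattern TTCNNNGAA in 4 (14.8%) against 9.55%, and CAAAGTCCA, an HNF4 pattern, in 1 (Cyp3a11; 3.7%) against 0.555%. The 11 genes with GTTAAT included members that fell (Alb, Fabp1, Gc, Pck1, Serpina1b, Serpina1c, Vtn), 1 that did not pass the test (Fgb) and 3 that were not tested (Fga, G6pc, Serpina1a). The matches are letters in a window and describe no binding.

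Summed over the 34 members, counts were a small part of every library and a smaller part of CD40 day 2. The cells these transcripts came from were not tested. The members took 0.099% of all counts in Kupffer day 0 a (1596 counts, 95% exact binomial interval 0.0942% to 0.104%) and 0.239% in Kupffer day 0 b (1645 counts, 0.228% to 0.251%). In CD40 day 2 they took 0.043% in a (508 counts, 0.0393% to 0.0469%), 0.0189% in b (137 counts, 0.0159% to 0.0223%), 0.0265% in c (602 counts, 0.0244% to 0.0287%) and 0.0208% in d (369 counts, 0.0187% to 0.023%). Both Kupffer libraries lay above all 4 CD40 libraries. The mean share was 0.169% ± 0.099 (SD, n = 2) against 0.0273% ± 0.0109 (SD, n = 4), a ratio of 6.19. The exact permutation p was 0.133, two-sided by doubling the one-sided p. Under that rule it is the smallest that 15 splits of 6 libraries allow. Without Alb the ratio was 6 (the same p). The intervals cover counting error only. In bulk RNA, fewer cells of a type and less RNA per cell cannot be told apart. Without Kupffer day 0 b, the difference of the 2 mean shares was -0.0717 percentage points in place of -0.142.

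Total counts were 688498 and 1612435 in Kupffer day 0 and 725683 to 2271228 in CD40 day 2, so that the floor of detection, taken as 3 counts, was 1.32 to 4.36 CPM, the count relative to the library total (scaled by TMM for the levels of genes). Of 9852 genes tested with edgeR, 5262 differed at an adjusted p under 0.05. The level of Cd40 itself was 19.1 ± 1.41 CPM (SD) over the 2 Kupffer libraries and 330 ± 72.6 CPM over the 4 CD40 libraries, which fits the label. Clec4f, a lectin of Kupffer cells, was at 1073 ± 74.3 CPM in the Kupffer libraries against 17.2 ± 3.61. Ptprc, the pan-leukocyte marker CD45, was at 109 ± 5.07 against 625 ± 58.8 CPM.

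Other cell types moved between the same groups. Genes of liver endothelial cells (22 of 22 in the table) held 3.07% and 3.18% of counts in Kupffer day 0 and 0.0907% to 0.143% in CD40 day 2. Stellate cell and fibroblast genes (16 of 16) held 0.246% and 0.194% against 0.00496% to 0.0133%. Col1a1, which was not tested, held 3 and 3 counts in Kupffer day 0 against 0 in CD40 day 2. The Kupffer identity genes (15 of 15) held 0.585% and 0.501% against 0.0671% to 0.102%. Of these, 11 were called lower and 3 higher, Il18bp among the latter, against 30.2% and 23.2% of all genes tested. The pan-leukocyte genes (9 of 10) held 0.749% and 0.865% against 2.9% to 3.96%. Genes of classical monocytes (14 of 14) moved far in the same direction, from 0.214% and 0.195% to 1.86% to 2.45%, with 12 of 14 called higher. The hepatocyte genes were thus lower beside several other lists of liver cells, and the part of these cells in the differences below was not tested. Bile duct genes (7 of 8 in the table) held at most 0.00218%. Mitochondrially encoded genes held 3.12% and 2.62% against 1.16% to 1.73%, and nuclear-retained transcripts (3 of 4 in the table, 3 of 3 called lower) 2.63% and 4.06% against 1.34% to 2.21%.

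**Figure D1:**
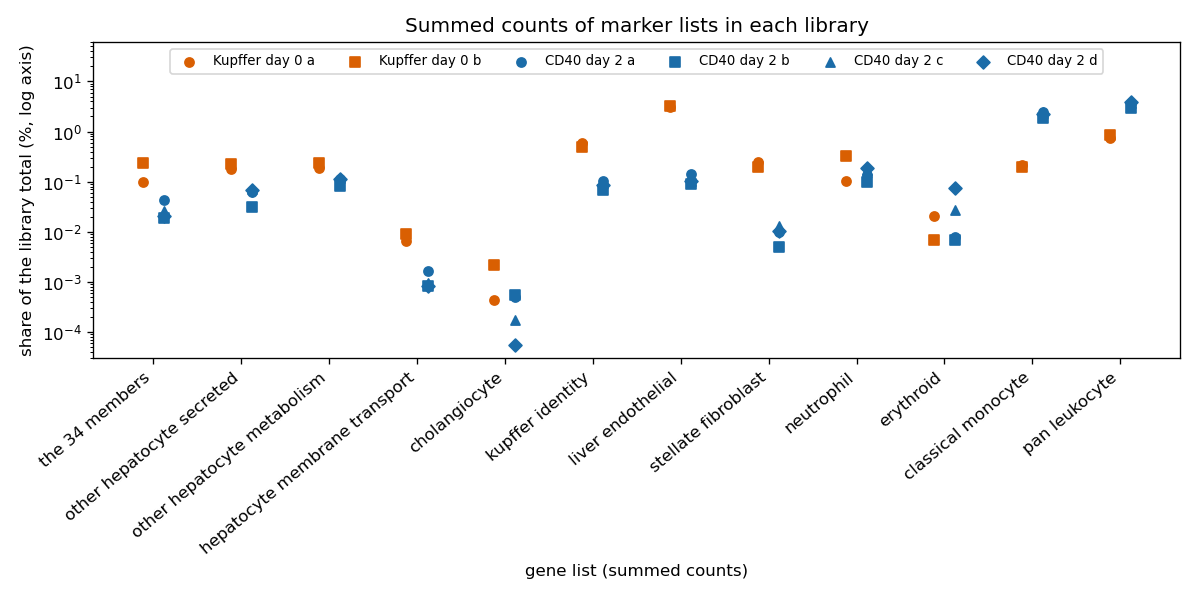
Share of the library total (percent, log axis) held by the summed counts of each gene list, 1 point per library. Orange points are the 2 Kupffer day 0 libraries and blue points the 4 CD40 day 2 libraries. The 34 members stand at 0.099% and 0.239% in Kupffer day 0 and at 0.0189% to 0.043% in CD40 day 2.

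Gene by gene, 22 of the 34 members passed the filter on low counts and 12 did not. Of the 22, 18 were lower in CD40 day 2 at an adjusted p under 0.05 (edgeR quasi-likelihood test), 4 did not pass and 0 were higher. Over all genes tested, 30.2% were called lower and 23.2% higher, or 53.4% in all. At an unadjusted p under 0.05, passed by 59% of all genes in either direction, the members' counts were again 18 lower and 0 higher, and DESeq2 called 17 lower and 0 higher. All 4 CD40 libraries lay below both Kupffer libraries for 17 of the 22 (36.9% of all genes tested) and above both for 0 (29.7%). The median log2 fold change of the 22 was -2.57, against -0.10 for all genes tested. These counts describe the list and are no support for a fall of it. Of the 22 members, 9 reached the filter level in both Kupffer libraries and in at most 1 CD40 library, so that their being tested at all rested on the group where they were high. These 9, all among the 18 called lower, were Apoa1, Apoc3, Apob, Serpina1b, Rbp4, Cyp3a11, Vtn, Itih3 and Pck1. The tallies by role below include them and share this limit. Each of those tallies stands beside the 30.2% of all genes tested that were called lower. With no filter, 22 of 34 members were called lower and 0 higher, with a median of -2.32, against 17.8% lower, 11.8% higher and a median of -0.17 over all 20783 genes with a count. Pooled over the libraries of a group, 31 of the 34 had a lower share of counts in CD40 day 2, as did 58% of all genes with a count. The exceptions, Hpx, Fgg and Fga, were named after their values were seen.

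**Figure D2:**
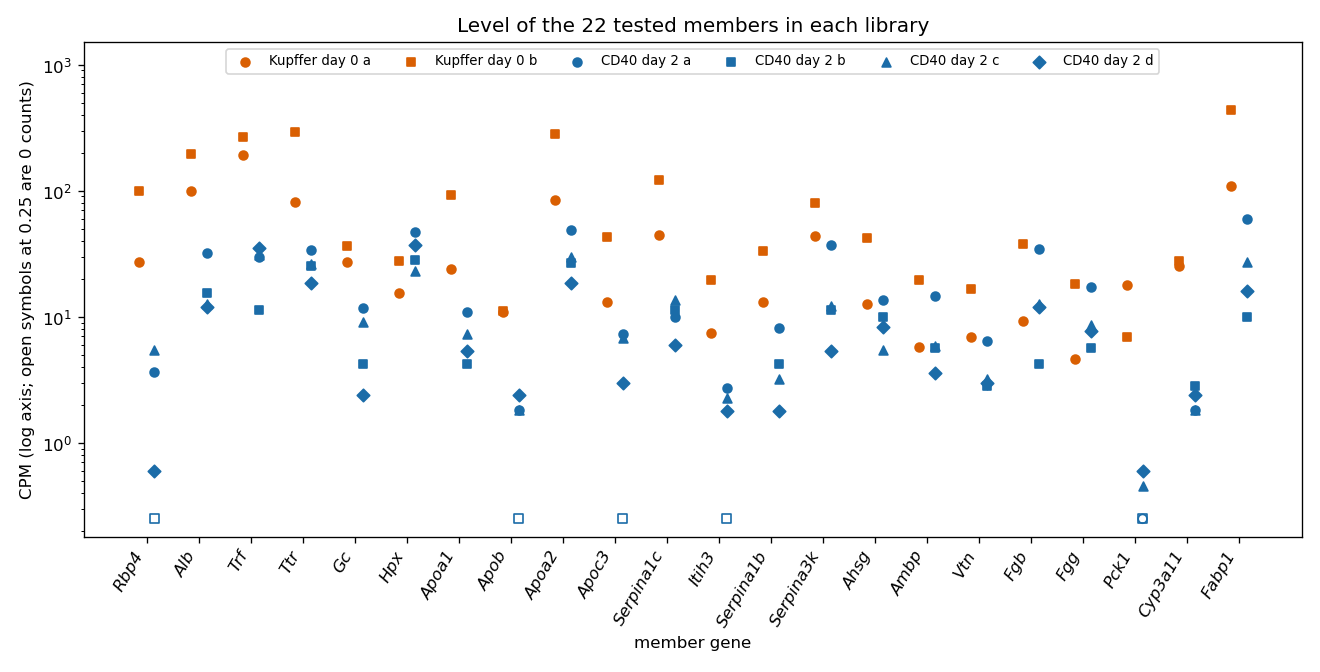
CPM of the 22 tested members (log axis) in each library, grouped by role, with Kupffer day 0 in orange and CD40 day 2 in blue. Open symbols drawn at 0.25 stand for 0 counts. For 17 members every blue point lies below both orange points, whereas Hpx, Fgb, Fgg, Ambp and Ahsg overlap.

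Among the carriers, 5 of 6 tested members fell. Alb, the albumin of plasma on chromosome 5 from 90460897 to 90476602, was at 99.9 and 196 CPM in Kupffer day 0 a and b. In CD40 day 2 a to d it was at 31.9, 15.6, 12.7 and 11.9 CPM. All 4 lay below both Kupffer libraries, with a the highest of them (log2 fold change -3.06 ± 0.38 SE, adjusted p = 0.000122). Trf, transferrin, the iron carrier on chromosome 9 from 103204001 to 103230444, was at 193 and 265 CPM against 30, 11.3, 31 and 35.1 (-3.01 ± 0.29, adjusted p = 2.43e-05). Here the Kupffer libraries were close together and CD40 day 2 b was the lowest. Ttr, transthyretin, a carrier of thyroid hormone and of retinol-binding protein, was at 81.5 and 291 CPM against 33.7, 25.5, 26.4 and 18.5 (-2.81 ± 0.43, adjusted p = 0.000434). Its CD40 values were the most even of these 3 genes, whereas its Kupffer values were far apart.

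Rbp4, the carrier of retinol on chromosome 19 from 38116629 to 38125281, was at 27 and 98.9 CPM in Kupffer day 0. In CD40 day 2 a to d it was at 3.64, 0, 5.46 and 0.596 CPM, that is 4, 0, 12 and 1 counts. The fall was among the 2 largest of the tested members (-4.30 ± 0.70, adjusted p = 0.00059). Gc, the vitamin D-binding protein, was at 27 and 36.2 CPM against 11.8, 4.24, 9.1 and 2.38 (-2.13 ± 0.47, adjusted p = 0.00369). Its groups did not overlap either. Hpx, haemopexin, which binds free haem, was the exception. It lies on chromosome 7 from 105591613 to 105600137 and was at 15.5 and 27.9 CPM in Kupffer day 0 and at 47.3, 28.3, 23.2 and 36.9 in CD40 day 2. Of these, 3 of 4 CD40 libraries lay above both Kupffer libraries, and c lay between them. CD40 day 2 b barely did so, with 20 counts in it and 20 in Kupffer day 0 b. Hpx missed the threshold (0.73 ± 0.37, adjusted p = 0.125). Its pooled share in Kupffer day 0 was 0.658 of that in CD40 day 2 (95% counting interval 0.467 to 0.91). That interval covers counting error only and leaves out the spread between libraries. Without Kupffer day 0 b the log2 fold change was -1.66 for Ttr and -3.20 for Rbp4. Without Kupffer day 0 a it was -3.50 for Ttr and -5.05 for Rbp4, and without CD40 day 2 c it was -5.27 for Rbp4. All of these remained called.

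Apolipoproteins fell in 4 of 4 tested cases, of which Apoa1, Apoc3 and Apob owed their test to the Kupffer libraries. Apoa2, of high-density lipoprotein, lies on chromosome 1 from 171225054 to 171226379 and was at 85 and 281 CPM in Kupffer day 0 and at 49.2, 26.9, 30 and 18.5 in CD40 day 2 (-2.53 ± 0.46, adjusted p = 0.00112). Apoa1, the main protein of the same particle, was at 24.1 and 91.9 CPM against 10.9, 4.24, 7.28 and 5.36 (-2.92 ± 0.53, adjusted p = 0.00122). In both genes Kupffer day 0 b was more than 3 times a (3.2 and 3.68), yet both lay above all CD40 libraries. Apoc3, an inhibitor of triglyceride clearance, was at 13.2 and 43.2 CPM against 7.28, 0, 6.83 and 2.98 (-2.41 ± 0.65, adjusted p = 0.0113). Apob, the structural protein of very-low-density lipoprotein, was at 10.9 and 11.1 CPM against 1.82, 0, 1.82 and 2.38 (-2.60 ± 0.52, adjusted p = 0.00215). It was the one apolipoprotein at an even level in both Kupffer libraries. Apoh, beta-2-glycoprotein I, did not pass the filter, with 6 and 8 counts against 7, 0, 6 and 3. With Kupffer day 0 b left out, Apoc3 was not called (-1.46, adjusted p = 0.17), and Apoa2 (-1.46, adjusted p = 0.0218) and Apoa1 (-1.76, adjusted p = 0.0176) were smaller. With a left out, Apob was not called (-2.64, adjusted p = 0.0522), and the fall was larger for Apoa1 (-3.69), Apoa2 (-3.19) and Apoc3 (-3.16).

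Of the protease inhibitors and related proteins, 5 of 6 tested members fell. Serpina1c, an alpha-1-antitrypsin on chromosome 12 from 103894926 to 103904887, was at 44.8 and 121 CPM against 10, 11.3, 13.7 and 5.96 (-2.94 ± 0.43, adjusted p = 0.0003). Serpina1b, its neighbour, was at 13.2 and 33.4 CPM against 8.19, 4.24, 3.19 and 1.79 (-2.40 ± 0.57, adjusted p = 0.0054). Serpina1a did not pass the filter, with 11 and 8 counts against 2, 2, 3 and 2. These genes are close copies, so reads may have been split between them. Summed over Serpina1a to Serpina1e, 5 genes, the level was 152 and 436 CPM against 41.9, 35.4, 31.4 and 22, with no overlap between the groups and a ratio of means of 9 (4.66 without Kupffer day 0 b, left out after the data were seen). Serpina3k was at 43.6 and 79.4 CPM against 37.3, 11.3, 12.3 and 5.36 (-1.90 ± 0.56, adjusted p = 0.0162). CD40 day 2 a was far above the other three and close to Kupffer day 0 a.

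Itih3, a heavy chain of the inter-alpha-trypsin inhibitor, was at 7.46 and 19.5 CPM against 2.73, 0, 2.28 and 1.79 (-2.61 ± 0.62, adjusted p = 0.00575). Ahsg, fetuin-A, a carrier protein of plasma that inhibits calcification, was at 12.6 and 41.8 CPM against 13.7, 9.9, 5.46 and 8.34 (-1.47 ± 0.52, adjusted p = 0.0378). It was called although CD40 day 2 a lay above Kupffer day 0 a. Ambp, the precursor of bikunin and alpha-1-microglobulin, was at 5.74 and 19.5 CPM against 14.6, 5.66, 5.92 and 3.57 without passing the test (-0.62 ± 0.65, adjusted p = 0.45). Itih4 did not pass the filter, with 6 and 4 counts against 6, 2, 7 and 7. When Kupffer day 0 b was left out, Serpina1b (-1.68, adjusted p = 0.0808), Serpina3k (-1.45, adjusted p = 0.134), Itih3 (-1.93, adjusted p = 0.0908) and Ahsg (-0.50, adjusted p = 0.488) were not called, and Serpina1c was at -2.12. Without Kupffer day 0 a the values were -3.02 for Serpina1b, -3.55 for Serpina1c, -3.30 for Itih3 and -2.23 for Ahsg. Ahsg was also not called without CD40 day 2 c (adjusted p = 0.0907) or d (adjusted p = 0.0641). Serpina3k was at -2.62 without CD40 day 2 a. Ambp changed sign, with 0.32 without Kupffer day 0 b and -1.44 without a.

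Of the coagulation and plasma matrix proteins, 3 were tested, and the fibrinogen chains Fgb and Fgg among them did not pass in either direction. Vtn, vitronectin, a matrix and plasma protein, fell. It was at 6.89 and 16.7 CPM against 6.37, 2.83, 3.19 and 2.98 (-1.48 ± 0.53, adjusted p = 0.0384). CD40 day 2 a almost reached Kupffer day 0 a. That call was lost without Kupffer day 0 b (-0.85, adjusted p = 0.348), without CD40 day 2 b (adjusted p = 0.0606) and by DESeq2 (adjusted p = 0.0894), and without Kupffer day 0 a the value was -2.12.

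The 3 fibrinogen chains, which together form the clot-forming protein of plasma, lie side by side on chromosome 3. Fgb, the beta chain, was at 9.19 and 37.6 CPM in Kupffer day 0 and at 34.6, 4.24, 12.7 and 11.9 in CD40 day 2 (-0.35 ± 0.70, adjusted p = 0.698). Fgg, the gamma chain, was at 4.59 and 18.1 CPM against 17.3, 5.66, 8.65 and 7.74 (0.04 ± 0.60, adjusted p = 0.967). Fga, the alpha chain, held 3 and 4 counts against 4, 0, 10 and 6 and did not pass the filter. The groups overlapped for all 3. Summed over the chains, the level was 15.5 and 61.3 CPM against 55.5, 9.9, 25.9 and 23.2, with the highest Kupffer and the highest CD40 library close together. The direction of both tested chains turned on 1 library: without Kupffer day 0 b the log2 fold change was 0.80 for Fgb and 1.09 for Fgg, and without a it was -1.23 and -0.88. For the other clotting-related members the counts were too low to be tested. Kng1, the precursor of kinins, held 9 and 8 counts against 4, 0, 6 and 6. Plg, plasminogen, held 3 and 2 against 2, 1, 1 and 1, and Hrg, histidine-rich glycoprotein, 3 and 1 against 0, 0, 1 and 1. The pooled ratio of shares, Kupffer day 0 over CD40 day 2, was 2.75 for Kng1 (counting interval 1.31 to 5.82). It was 2.59 for Plg (0.596 to 11.2) and 5.18 for Hrg (0.742 to 57.2). These intervals cover counting error only.

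**Figure D3:**
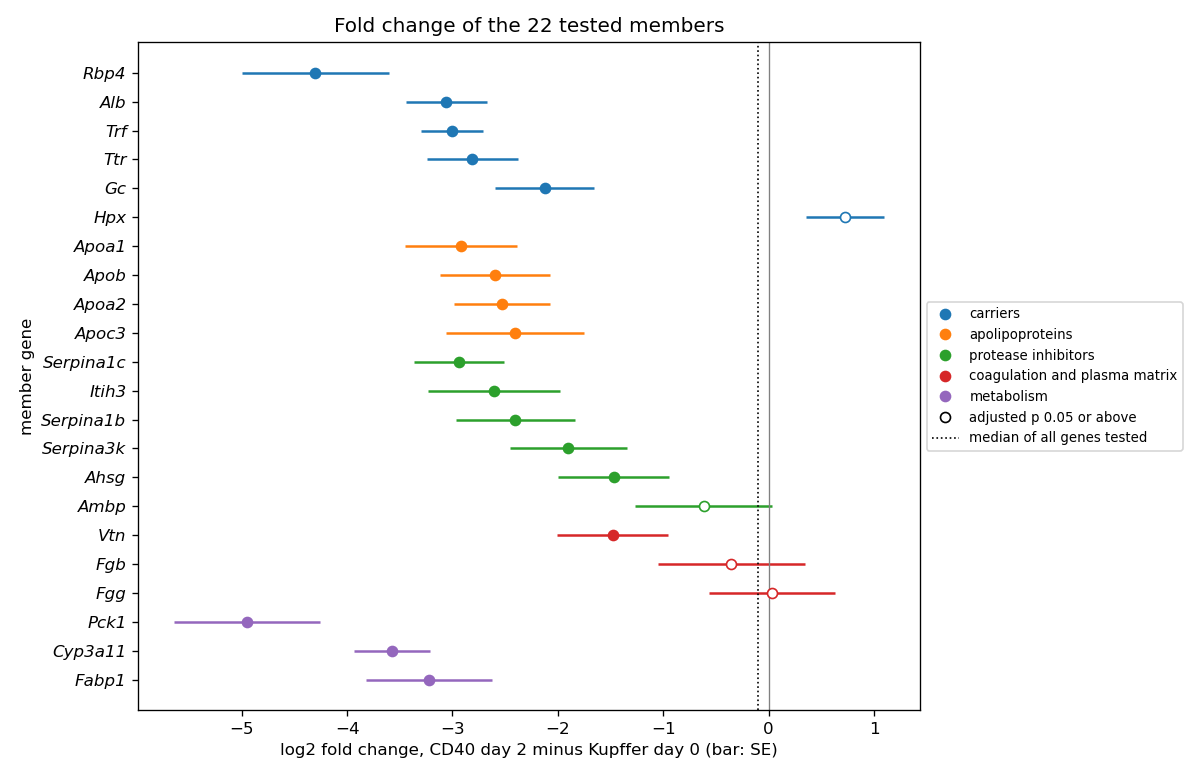
Log2 fold change of the 22 tested members, CD40 day 2 minus Kupffer day 0, with its standard error, coloured by role. Filled points passed an adjusted p of 0.05 and open points did not, and the dotted line is the median of all genes tested (-0.10). The 4 open points are Hpx, Ambp, Fgb and Fgg.

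Of the 8 metabolic members, 3 were tested and all of these fell, of which Cyp3a11 and Pck1 owed their test to the Kupffer libraries. Fabp1, the fatty acid-binding protein of liver on chromosome 6 from 71199827 to 71205023, was at 109 and 439 CPM against 60.1, 9.9, 27.3 and 16.1 (-3.22 ± 0.60, adjusted p = 0.0014). Both groups were wide, and CD40 day 2 a was again the highest of the 4. Cyp3a11, a P450 enzyme that oxidises drugs, lies on chromosome 5 from 145854426 to 145879964 and was at 25.3 and 27.9 CPM against 1.82, 2.83, 1.82 and 2.38 (-3.58 ± 0.36, adjusted p = 3.1e-05). Both groups were narrow. Pck1, a key enzyme of glucose synthesis on chromosome 2 from 173153048 to 173159273, was at 17.8 and 6.96 CPM against 0, 0, 0.455 and 0.596 (-4.95 ± 0.69, adjusted p = 0.000244). It held 36 counts in the Kupffer libraries, 31 of them in a and 5 in b, against 2 in the CD40 libraries. The pooled ratio of shares was 46.6, with a counting interval of 12 to 399 that leaves out the spread between libraries. Pck1 was tested under 8 of 12 alternatives, and not without Kupffer day 0 a, CD40 day 2 c or CD40 day 2 d. Fabp1 was at -1.92 (adjusted p = 0.0359) without Kupffer day 0 b and at -3.94 without a.

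The other five metabolic members did not pass the filter. Cps1, which starts the urea cycle, held 6 counts in the Kupffer libraries against 1 (ratio of shares 15.5, counting interval 1.88 to 714). Tat, a tyrosine aminotransferase, held 17 against 5 (8.8, 3.12 to 30.5). Tdo2, which breaks down tryptophan, held 17 against 11 (4, 1.77 to 9.45), and Cyp2e1, a P450 enzyme of ethanol oxidation, 15 against 10 (3.88, 1.63 to 9.66). All 4 intervals lay above 1, although they cover counting error only. G6pc, the phosphatase that releases glucose, held 1 count in all 6 libraries together and was not detectable at this depth.

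The makeup of the members' counts was compared within each library, as a share of the counts of the 34 members, which does not depend on the library total. The share of Alb was 10.9% and 8.57% in Kupffer day 0 and 6.89%, 8.03%, 4.65% and 5.42% in CD40 day 2. The mean was 9.74% ± 1.65 (SD, n = 2) against 6.25% ± 1.51 (n = 4). The exact permutation p was 0.133, two-sided, the smallest possible under the same rule. The gap between the groups was narrow at the counts of b (95% exact interval 4.08% to 13.9%). The groups overlapped for Apoa2, 9.27% and 12.3% against 10.6%, 13.9%, 11% and 8.4%. They overlapped for Ttr as well, with 8.9% and 12.7% against 7.28%, 13.1%, 9.63% and 8.4%. Rbp4 was at 2.94% and 4.32% against 0.787%, 0%, 1.99% and 0.271%.

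Haemopexin and fibrinogen took a larger part of the members' counts in CD40 day 2. They were singled out after their values were seen, as members that were not called lower, so their larger share follows in part from that choice and is given as a description with no test. Hpx held 1.69% and 1.2% of the members' counts in Kupffer day 0 and 10.2%, 14.6%, 8.47% and 16.8% in CD40 day 2. The fibrinogen chains together held 1.69% and 2.67% against 12%, 5.11%, 9.47% and 10.6%. In both cases all 4 CD40 libraries lay above both Kupffer libraries. Taken singly, 7 of the 34 members did so, namely Hpx, Fgb, Fgg, Ambp, Itih4, Ahsg and Vtn. Another 3 lay below and 24 overlapped, with Fga among the latter. Shares of the members' counts add to a fixed total, so members that fell less than the rest take a larger share. No share over all genes exists for this measure, so these counts of members describe the list and are no result about it. A larger share was not particular to haemopexin and fibrinogen, and Ahsg and Vtn had been called lower by level. With Ambp added, these 5 genes held 4.01% and 4.74% against 25.4%, 22.6%, 20.1% and 29%. The mean was 4.38% ± 0.517 (SD, n = 2) against 24.3% ± 3.82 (n = 4). The 8 metabolic genes held less in CD40 day 2, with 18.3% and 22.4% against 14.6%, 8.03%, 13.6% and 9.21%. On the scale of CPM, by contrast, fibrinogen and Hpx together were at 60.1 ± 41.1 (SD, n = 2) against 62.6 ± 28.3 (n = 4), a difference smaller than the spread within either group.

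**Figure D4:**
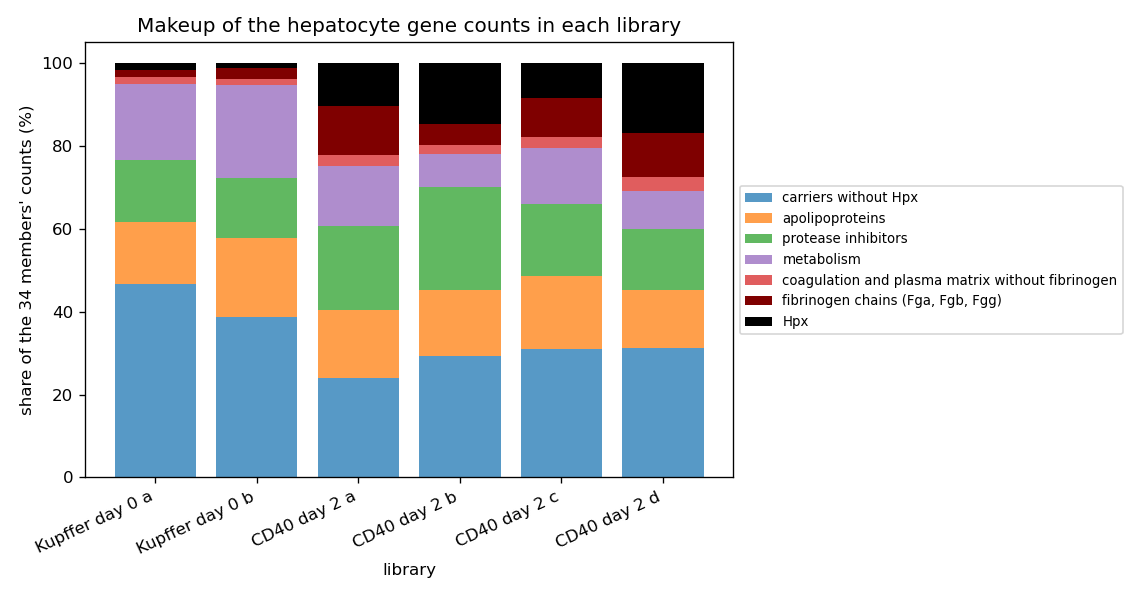
Share (percent) of the counts of the 34 members held by each role in each library, as stacked bars that add to 100. Black is Hpx and dark red the fibrinogen chains. Hpx reaches 1.69% and 1.2% in Kupffer day 0 and 8.47% to 16.8% in CD40 day 2.

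The 2 Kupffer day 0 libraries were unlike each other in these genes. The members' summed share of counts was 2.41 times higher in b than in a (counting interval 2.25 to 2.59). Taken gene by gene, the median ratio of b to a was 2.57 over the 22 tested members and 0.984 over all genes tested. The first median is of shares of library totals, the second of TMM-scaled CPM with a small constant added. Fgb (3.95), Fabp1 (3.9), Fgg (3.81), Apoa1 (3.68) and Rbp4 (3.54) had the highest ratios among the 22 tested members. Apob (0.986), Cyp3a11 (1.06), Gc (1.3) and Trf (1.32) stood near 1, and Pck1 was lower in b (0.378, counting interval 0.115 to 0.98). The counting interval lay above 1 for 16 of the 22 and below 1 for 1. The members therefore did not scale together between the libraries of this group. Neutrophil genes were in sum also higher in b, with 0.333% of counts against 0.101% in a, while erythroid genes were lower, with 0.00697% against 0.0203%. Most neutrophil genes were higher in b, but not all. S100a8 was at 466 CPM in a and 1875 in b, S100a9 at 131 and 625, and Retnlg at 99.3 and 295. Mmp9 (16.1 and 71), Mmp8 (6.89 and 30.6), Csf3r (6.32 and 39) and Cxcr2 (0.574 and 30.6) were higher in b as well. Lcn2 (15.5 and 20.9) and Ly6g (4.59 and 8.36) were higher by less, whereas Ngp (116 and 121), Camp (55.1 and 55.7) and Ltf (19.5 and 19.5) were level. In CD40 day 2 the neutrophil genes held 0.101% to 0.186% and the erythroid genes 0.00689% to 0.0754%. Their part in the members' values was not tested.

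**Figure D5:**
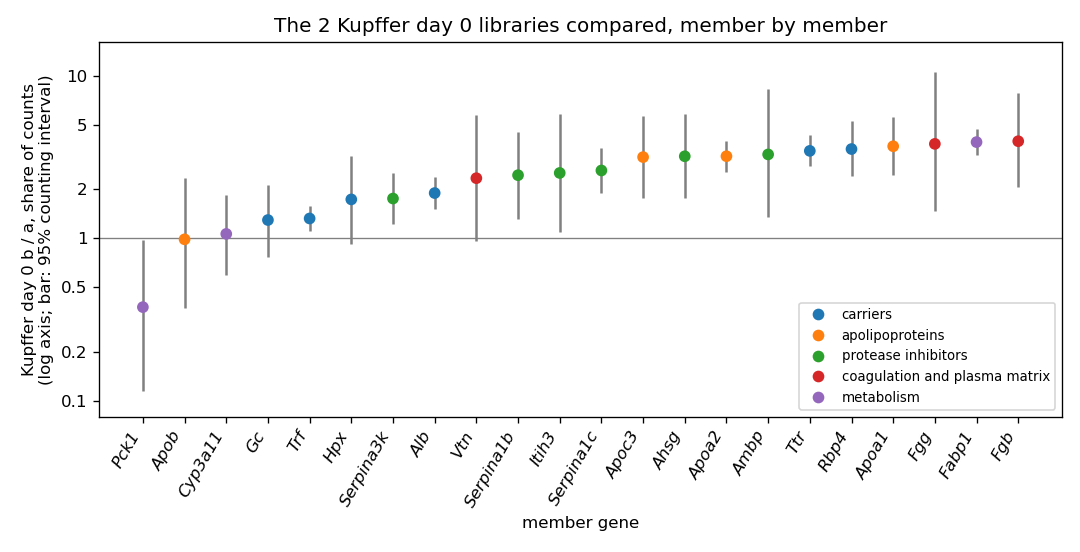
Ratio of the share of counts in Kupffer day 0 b to that in a for each tested member (log axis), with its 95% counting interval, coloured by role. Fgb at 3.95 is the highest and Pck1 at 0.378 the lowest of the 22.

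Further lists of genes that hepatocytes express were examined beside the members. The cells these transcripts came from were not tested, and the lists are not read as a measure of hepatocytes. In Kupffer day 0 the mean levels of Apoc1, Glul, Aass and Masp1 given below were above that of Alb (148 CPM). From Kupffer day 0 a to b, Apoc1 was at 674 and 787 CPM, Glul at 340 and 471, Aass at 313 and 262, and Masp1 at 187 and 221. The summed share of the members was 2.41 times higher in b. Of 54 other secreted proteins in the table, 17 were tested, of which 14 fell and 2 rose, against 30.2% lower and 23.2% higher among all genes tested. Apoc1 fell from 730 ± 79.8 to 35.5 ± 10.4 CPM (-4.35 ± 0.22, adjusted p = 7.45e-07) and Masp1, a protease of the lectin pathway, from 204 ± 24.2 to 5.13 ± 2.31 (-5.36 ± 0.29, adjusted p = 8.93e-07). F10, coagulation factor X, rose from 24.4 ± 6.92 to 401 ± 176 CPM (3.99 ± 0.49, adjusted p = 0.00011). The other that rose was F7, coagulation factor VII, chosen after its values were seen, with 2 and 1 counts in Kupffer day 0 against 33, 14, 82 and 73 (adjusted p = 8.43e-05). In this list and those below, genes of low count could pass the filter through 1 group alone, as F7 did through CD40 day 2. Several genes that fell passed it through Kupffer day 0 alone. Major urinary proteins, summed over 8 Mup genes, were at 58.6 and 191 CPM against 42.8, 9.9, 15 and 1.19.

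Of 85 other metabolic genes in the table, 33 were tested, with 19 lower and 4 higher. Aass, an enzyme of lysine breakdown, fell from 288 ± 36.5 to 4.3 ± 0.489 CPM (-6.06 ± 0.21, adjusted p = 1.5e-07). Glul, glutamine synthetase, fell from 405 ± 92.5 to 49.7 ± 13.2 (-3.00 ± 0.23, adjusted p = 6.09e-06). Ass1, which makes argininosuccinate in the urea cycle and in the recycling of citrulline, rose from 6.35 ± 0.864 to 117 ± 22.1 CPM (4.22 ± 0.31, adjusted p = 4.32e-06). Metabolic genes of the liver thus moved in both directions in this comparison, against 30.2% lower and 23.2% higher among all genes tested.

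Of 19 transcription factors of hepatocytes in the table, 4 were tested, with 2 lower and 0 higher, against 30.2% lower and 23.2% higher among all genes tested. Nr5a2, a nuclear receptor, fell from 27.7 ± 0.208 to 0.981 ± 0.756 CPM (-4.60 ± 0.46, adjusted p = 2.81e-05). Nr1h4, the bile acid receptor, also fell, from 22 and 7 counts to 2, 0, 0 and 0 (adjusted p = 0.000872). Cebpa, a C/EBP gene, was at 15.3 ± 15.7 against 10 ± 6.88 CPM, which missed the threshold (-0.66 ± 0.63, adjusted p = 0.402). Esrra, an oestrogen-related receptor, was at 24 ± 1.49 against 35.3 ± 6.87 CPM, with all CD40 libraries above both Kupffer libraries, and missed it too (0.60 ± 0.26, adjusted p = 0.075). Hnf4a, the defining nuclear receptor of hepatocytes, held 3 and 4 counts in Kupffer day 0 and 0 in all CD40 libraries. Foxa1, Foxa2 and Foxa3 held 0 in both Kupffer libraries and 1 count each in 1 CD40 library. None of these was tested. Of the 19, 2 held no count in CD40 day 2 and 6 none in Kupffer day 0, with 1 in both sets. Of 22 membrane and transport proteins in the table, 2 were tested and both fell. Ghr, the growth hormone receptor, went from 18 and 13 counts to 3, 0, 2 and 3 (adjusted p = 0.00138). Sdc2, a syndecan, went from 13 and 7 to 0, 0, 0 and 1 (adjusted p = 0.000451). Nr5a2, Nr1h4, Ghr and Sdc2 reached the filter level in the Kupffer libraries alone, so their being tested rested on the group where they were high. Slc10a1, the bile acid uptake transporter of hepatocytes, held 3 and 1 counts in Kupffer day 0 and 0 in CD40 day 2. Krt18, of the same list, held 4 and 5 counts against 7, 0, 7 and 4, and neither gene was tested.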

How the data were processed

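Counts of 34 member genes were compared between 2 libraries of Kupffer day 0 and 4 of CD40 day 2. The authors deposited raw counts per gene symbol. The submitters' processing notes name GRCm38.p6 and DESeq2 1.22.2. Not given in the sources used here: aligner, annotation, strand, and whether reads or molecular identifiers were counted. Columns are named by group alone. The 6 libraries were fitted with edgeR 4.0.16 in R 4.3.3 (TMM scaling, glmQLFit, two-sided), with Benjamini-Hochberg adjustment over all 9852 genes that passed filterByExpr (minimum count 10 in 2 libraries scaled to depth, here 7.16 CPM, and total 15). Standard errors were derived as the size of the log2 fold change divided by the root of the F statistic. CPM uses the TMM-scaled totals. The fit was tested on simulated data. Shares of counts were compared by exact permutation over libraries with scipy 1.17.1, which doubles the one-sided p. Coordinates are from GENCODE on GRCm38. At 8 members other annotated genes overlap. DESeq2 1.42.0 served as an alternative. All 36 members could be named, and up to 4 genes of each further list by mean level or adjusted p. F7, Col1a1, Hnf4a, Foxa1, Foxa2, Foxa3, Slc10a1, Ngp, Camp, Ltf, Retnlg, Mmp8, Csf3r, Cxcr2 and Ly6g were named outside this rule, with their values seen. The members and lists were chosen with earlier results of these data known. Depth (688498 to 2271228 counts) leaves members under about 4 CPM to single counts.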

Additional observations from a re-analysis of the deposited data

Results flagged for a closer look

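Vtn, vitronectin, stood out within CD40 day 2. Its level in library a, 6.37 CPM, was set apart from the other three, which lay between 2.83 and 3.19 CPM. The gap was 0.899 of the range of the group, above the 95% critical value of Dixon's test for 4 values. In all, 25 groups of 4 values were examined this way, and chance flags about 1 in 20 groups. The value rests on 7 counts in a against 2, 7 and 5 in the others.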

How the results depend on the processing

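Every alternative left 0 members called higher. Over the alternatives that keep all 6 libraries (other scalings, DESeq2, other filters), 16 to 22 members were called lower. Leaving out 1 library gave 12 (without Kupffer day 0 b) to 20, and 11 of the 18 called members were called under every alternative in which they were tested. The median log2 fold change of the tested members ranged from -2.83 to -1.73 when 1 library was left out, the latter without Kupffer day 0 b. Genes called over the whole table ranged from 3206 (without Kupffer day 0 a) to 5514. In these fits the lone Kupffer library is assumed to vary like the CD40 group. Scaling to library totals alone moved the median of all genes from -0.10 to -0.27. Fgg, at 0.04, changed sign with that scaling (-0.13), with DESeq2 (-0.072) and with a filter of 10 counts in 2 libraries (-0.0044), and ranged from -0.88 to 1.09 when 1 library was left out. The same ranges were -1.23 to 0.80 for Fgb, -1.44 to 0.32 for Ambp, -1.25 to 1.37 for Cebpa, -1.04 to 0.97 for S100a8 and -1.90 to 0.36 for S100a9. The cause was not tested. The difference in the members' share of counts kept its direction, from -0.212 to -0.0717 percentage points. No paired analysis was possible because columns are named by group, with no replicate numbers. Depth left 12 members untested.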
